A study of Mus musculus with 8 samples.

Results

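Lymphoid tissue organiser stroma genes are described here as a group of 10 genes among the 53801 genes of a count table from mouse small intestine. They were chosen by name: Vcam1, Icam1 and Madcam1 encode adhesion molecules, Tnfsf13b, Tnfsf11 and Il7 encode factors that act on lymphocytes and their partners, Enpp2, Ch25h and Bst1 encode enzymes, and Pdpn encodes podoplanin. RNA came from stromal cells that lacked CD45, the pan-leukocyte marker, and CD31, the endothelial marker, sorted by flow cytometry from the small intestine of LTβRYFP mice. The YFP+ group and the YFP- group each had 4 libraries, all from mice of that 1 line. LTβR is the lymphotoxin beta receptor. The sources used here do not give how YFP is driven in these mice, their age, or whether each library is a separate animal. The p-values below therefore cover only the spread among these libraries, and that spread may be technical.

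The titles of all 8 samples carry the opposite YFP sign to their descriptions and genotypes. Here YFP+ and YFP- follow the description and the genotype, and each direction below reverses if the titles are the correct labels. Levels are given as CPM, the read count divided by the scaled library total and expressed per 1e6 counts. Ltbr, the receptor gene itself, had 52.3 ± 6.85 CPM in the YFP- libraries against 56.6 ± 1.27 CPM in the YFP+ libraries (SD, n = 4 each; edgeR adjusted p = 0.396), so it does not decide between the labels. Totals ran from 23272858 to 29829232 counts per library. Of 8 defining fibroblast genes, 7 averaged 245.5 CPM or more in both fractions and Thy1 was below 1 CPM. The collagens Col1a1, Col1a2 and Col3a1 and decorin (Dcn) carried most of the summed level of 39275 to 46386 CPM in YFP- and 34104 to 37886 CPM in YFP+. Of those 8, 1 rose and 5 fell at an edgeR adjusted p under 0.05. Over all genes tested, 3.65% rose and 7.85% fell. With same-numbered libraries not taken as pairs, 2 of the 8 passed.

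In developing lymph nodes, Peyer's patches and the isolated follicles of the gut, stromal organiser cells receive lymphotoxin from lymphoid tissue inducer cells and signal through LTβR to the NF-kB factors. They then display adhesion molecules that hold lymphocytes, release chemokines that place them, and supply survival factors such as BAFF and interleukin 7. Many of the same genes are also used at lower or steady levels by ordinary fibroblasts of the gut lamina propria.

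The promoter windows below are shown because NF-kB is the textbook link between LTβR and these genes. RefSeq promoter entries (GRCm38.p6) matched 6 of the 10 genes: Pdpn, Tnfsf13b, Icam1, Madcam1, Tnfsf11 and Ch25h. Vcam1, Enpp2, Il7 and Bst1 had no entry. The 250 bases before each annotated start were searched on both strands for GGANNNTCC and GGNNTTTCC, which are kB-type motifs that can overlap each other, and for GGAGATTTG, the core of a sequence described for RelB dimers. These motifs were chosen after the windows had been read. Of 32851 such windows, 7.27% held the first motif, 4.93% the second and 0.231% the third, and 11.1% held at least 1. Capitals mark the matches, and each line runs 5′ to 3′ along the gene.
Icam1, chr9:21015690-21015939, plus strand: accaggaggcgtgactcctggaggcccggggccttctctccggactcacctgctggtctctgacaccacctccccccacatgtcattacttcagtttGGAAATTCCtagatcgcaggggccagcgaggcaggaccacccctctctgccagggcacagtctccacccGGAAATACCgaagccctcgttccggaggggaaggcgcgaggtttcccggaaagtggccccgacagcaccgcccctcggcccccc
Madcam1, chr10:79664309-79664558, plus strand: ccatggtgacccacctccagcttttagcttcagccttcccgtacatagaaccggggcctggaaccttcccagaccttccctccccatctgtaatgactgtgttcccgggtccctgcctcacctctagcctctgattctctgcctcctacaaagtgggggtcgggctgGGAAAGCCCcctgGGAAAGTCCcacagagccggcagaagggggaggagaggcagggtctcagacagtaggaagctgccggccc
Ch25h, chr19:34475149-34475398, minus strand: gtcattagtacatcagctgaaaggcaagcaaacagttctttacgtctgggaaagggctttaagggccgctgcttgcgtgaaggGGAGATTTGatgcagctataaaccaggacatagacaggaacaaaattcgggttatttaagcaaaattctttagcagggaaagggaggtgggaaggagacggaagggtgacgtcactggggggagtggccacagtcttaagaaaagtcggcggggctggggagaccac
Tnfsf13b, chr8:10006217-10006466, plus strand: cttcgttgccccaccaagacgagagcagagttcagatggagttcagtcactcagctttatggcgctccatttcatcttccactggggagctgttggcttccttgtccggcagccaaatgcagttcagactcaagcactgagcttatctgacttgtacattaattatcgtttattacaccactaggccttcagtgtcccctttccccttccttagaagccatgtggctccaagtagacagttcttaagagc

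Icam1 held GGAAATTCC, a match to the first motif and, on the other strand, to the second, from 153 to 145 bases before its start, and GGAAATACC, the second motif read on the other strand, from 84 to 76 bases. Madcam1 held the second motif on the other strand as GGAAAGCCC from 83 to 75 bases and as GGAAAGTCC from 70 to 62 bases before its start, and the latter is also a match to the first. Ch25h held the third motif from 167 to 159 bases before its start. These distances are from the RefSeq starts, which for Icam1 and Ch25h differ from the gene coordinates given below. None of the 3 motifs was found in the windows of Pdpn and Tnfsf11 or in either of the 2 windows listed for Tnfsf13b, of which the more upstream is shown. A match is a description of letters and was not measured as a bound site. The 4 genes shown ran from the most abundant by CPM (Icam1) to a gene with almost no counts (Madcam1).

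Of the 10 genes, 7 had enough counts to be tested. Tnfsf13b and Vcam1 were higher in YFP+, and Enpp2 and Icam1 were lower. Il7, Ch25h and Pdpn did not pass, and Madcam1, Tnfsf11 and Bst1 were too low to test. The test was edgeR's quasi-likelihood F test with same-numbered libraries as pairs. Over all 16354 genes tested, 11.5% passed at an adjusted p of 0.05, 3.65% upward and 7.85% downward. With the pairing left out 2 of the members passed, Tnfsf13b and Enpp2, against 4.26% of all genes. The 7 tested genes had a median log2 fold change of 0.30 against 0.01 over all genes tested. A low-count filter chose these 7, so the median describes them and not the full list. In these bulk libraries, fewer cells of a type and less RNA per cell cannot be told apart.

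**Figure D1:**
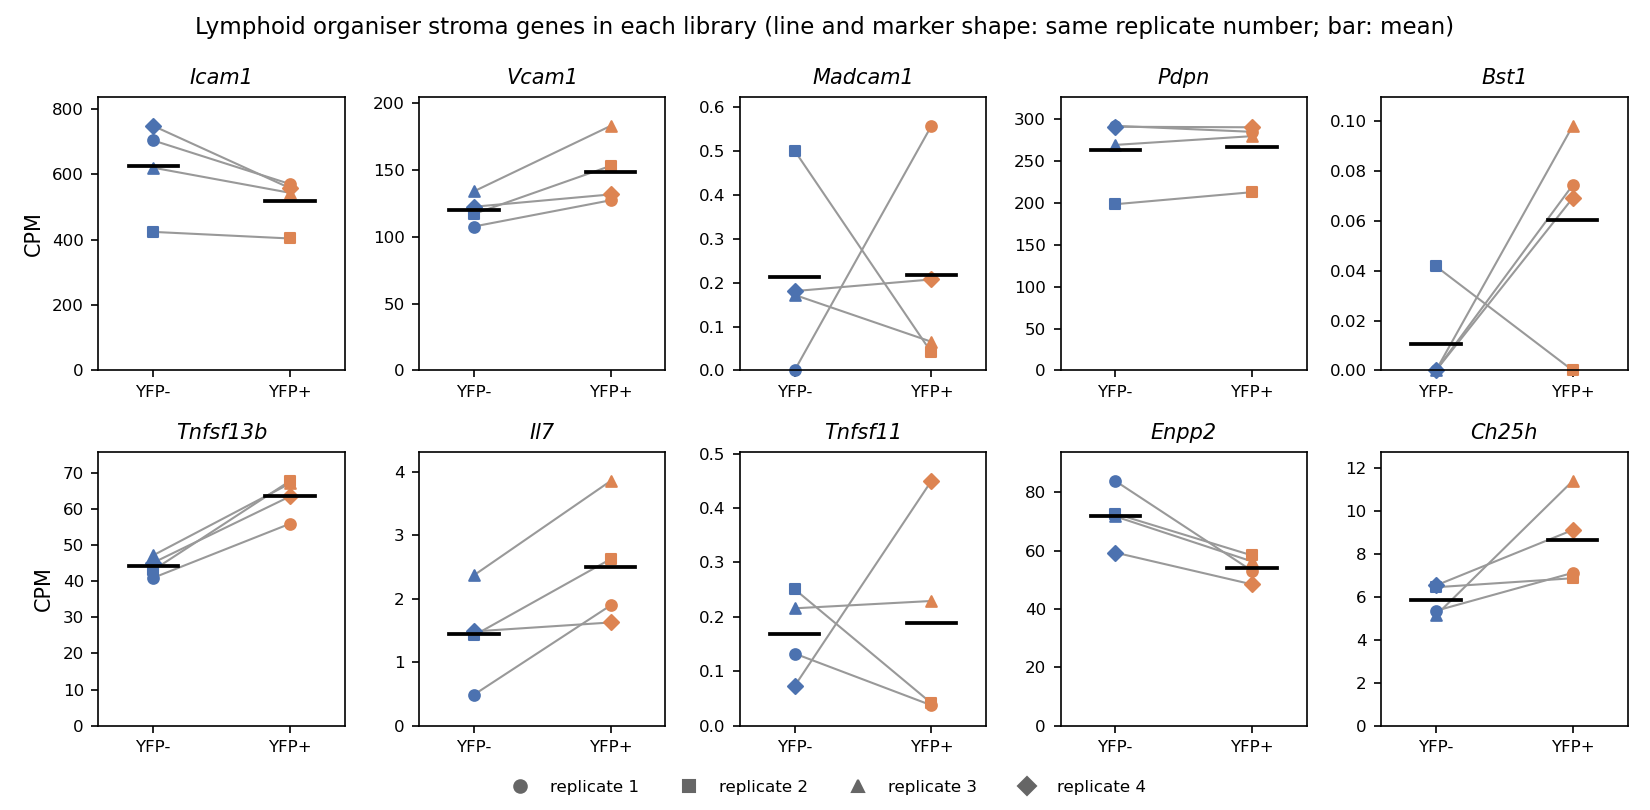
CPM of each gene (vertical axis, from 0, scaled per gene) in 4 YFP- and 4 YFP+ libraries. Marker shapes and grey lines join libraries with the same replicate number and black bars are means. The groups are apart for Tnfsf13b, with 41.0 to 47.3 CPM in YFP- and 56.0 to 67.9 CPM in YFP+, while Pdpn follows the replicate number and Bst1 stays under 0.1 CPM.

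Tnfsf13b encodes BAFF, the ligand that keeps mature B cells alive and supports IgA-producing plasma cells in the gut. Its levels in YFP- replicates 1 to 4 were 41.0, 43.1, 47.3 and 45.2 CPM, and in YFP+ replicates 1 to 4 they were 56.0, 67.9, 67.2 and 63.6 CPM. Every YFP+ library lay above every YFP- library, a separation in either direction that 9.64% of tested genes showed. Means were 44.2 ± 2.69 CPM (YFP-) against 63.7 ± 5.44 CPM (YFP+; SD, n = 4 each). The log2 fold change was 0.53 (SE 0.07), or 1.44-fold, with an edgeR adjusted p of 1.37e-05, and YFP+ was higher in 4 of 4 pairs. The ratio differed little from pair to pair, running from 0.45 to 0.65 on the log2 scale. Tnfsf13b (ENSMUSG00000031497) spans 10006467 to 10039072 of chromosome 8, plus strand, in GRCm38, and its exons overlap no other annotated gene.

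Il7 encodes interleukin 7, the survival cytokine of naive T cells and innate lymphoid cells. It was a low transcript, with 11, 34, 55 and 41 counts in YFP- replicates 1 to 4 and 51, 64, 118 and 47 counts in YFP+. In CPM these were 0.486, 1.42, 2.37 and 1.49 in YFP- and 1.90, 2.63, 3.86 and 1.63 in YFP+. Each YFP+ library was above its same-numbered partner, but the groups overlapped. A log2 fold change of 0.87 (SE 0.39) did not pass (edgeR adjusted p = 0.179), with a 95% interval from 0.06 to 1.68 before adjustment. The pair ratios ran from 0.13 to 1.97 on the log2 scale, the highest in pair 1, where the YFP- library had only 11 counts.

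Tnfsf11 encodes RANKL, which organiser cells and the stroma beneath the follicle epithelium use to induce M cells. It had 3, 6, 5 and 2 counts in YFP- replicates 1 to 4 and 1, 1, 7 and 13 in YFP+. Summed over libraries these were 16 counts in YFP- and 22 in YFP+, or 0.164 CPM (exact Poisson 95% interval 0.0939 to 0.267) and 0.199 CPM (0.125 to 0.301), intervals that cover counting error only. A difference was not detectable at this depth. Tnfrsf11b, the decoy receptor osteoprotegerin that binds RANKL, was far above its ligand by CPM, at 12.9 ± 5.56 CPM (YFP-) against 14.3 ± 7.35 CPM (YFP+; SD, n = 4 each). It did not pass (log2 fold change 0.10, edgeR adjusted p = 0.709).

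Among the adhesion molecules, Vcam1 and Icam1 moved in opposite directions. Vcam1, whose product binds α4 integrins on lymphocytes, stood at 107.7, 117.1, 134.1 and 122.5 CPM in YFP- replicates 1 to 4. In YFP+ it stood at 127.4, 153.2, 183.1 and 131.8 CPM. The groups overlapped, because YFP- replicate 3 was above YFP+ replicates 1 and 4, yet YFP+ was higher in 4 of 4 pairs. The log2 fold change was 0.30 (SE 0.06), or 1.23-fold, with an edgeR adjusted p of 0.0018. It did not pass when the pairing was left out (edgeR adjusted p = 0.163) or without the libraries numbered 3 (edgeR adjusted p = 0.0624). Over all alternatives its adjusted p ran from 4.06e-05 to 0.163. Vcam1 (ENSMUSG00000027962) spans 116109949 to 116129688 of chromosome 3, minus strand, and the antisense gene Gm43109 shares 61 of its 8870 exonic bases.

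Icam1, the ligand of the integrin LFA-1, was the most abundant member by CPM. Its levels were 702.6, 423.2, 619.3 and 747.1 CPM in YFP- replicates 1 to 4 and 569.3, 403.1, 542.5 and 556.8 CPM in YFP+. Both libraries numbered 2 were the lowest of their group, and the groups overlapped. YFP+ was lower in 4 of 4 pairs, with pair ratios from -0.42 to -0.07 on the log2 scale. The log2 fold change was -0.25 (SE 0.05), or 0.842-fold, with an edgeR adjusted p of 0.00232. With the pairing left out it did not pass (edgeR adjusted p = 0.536), nor without the libraries numbered 4 (edgeR adjusted p = 0.0604), and its adjusted p ran from 6.15e-05 to 0.536 over the alternatives. Icam1 (ENSMUSG00000037405) spans 21015985 to 21028817 on the plus strand of chromosome 9. An annotated antisense gene, Gm47079, shares 511 of its 4360 exonic bases, and the strand setting of the counting is not given in the sources used here.

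Icam1 is inducible by stress and inflammatory signals, and other inducible genes moved with it. All 10 genes of an early-response list fell in YFP+, where 7.85% of all genes tested did, with a median log2 fold change of -0.41. With the pairing left out, 7 of the 10 passed. Their summed level was 10113 to 12111 CPM in YFP- and 7808 to 8394 CPM in YFP+. Egr1 fell by 0.36 on the log2 scale (edgeR adjusted p = 6.05e-06) and Fos by 0.41 (edgeR adjusted p = 4.15e-07). The part of this in the Icam1 result was not tested. Smooth muscle and mural genes also differed between the fractions, and some of these cells carry VCAM-1. Of 9 smooth muscle and mural genes, 5 rose and 1 fell, where 3.65% and 7.85% of all genes tested did. Their summed levels were 1176 to 1586 CPM in YFP- and 1471 to 2080 CPM in YFP+. With the pairing left out, 2 of the 9 passed, Cspg4 upward (edgeR adjusted p = 0.0307) and Mcam downward (edgeR adjusted p = 4.17e-04). Myh11, smooth muscle myosin, rose by 0.86 on the log2 scale (edgeR adjusted p = 0.0214), a call lost with the pairing left out (0.499) and without the libraries numbered 2 (0.212). The log2 fold change of Rgs5, a pericyte gene, was 0.09 (edgeR adjusted p = 0.277). Their part in the Vcam1 result was not tested.

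Madcam1 encodes the addressin that α4β7 integrin binds, carried by gut venules and by the rim stroma of lymphoid tissue. It had 0, 12, 4 and 5 counts in YFP- replicates 1 to 4 and 15, 1, 2 and 6 in YFP+. The summed counts were 21 and 24, or 0.216 CPM (exact Poisson 95% interval 0.133 to 0.330) in YFP- and 0.217 CPM (0.139 to 0.323) in YFP+. Single libraries differed far more than the groups did. In YFP- replicate 1 the count of 0 allows up to 0.132 CPM, taken as 3 counts of the scaled total.

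Pdpn encodes podoplanin, a mucin-like protein of fibroblastic reticular cells and many fibroblasts that binds CLEC-2 on platelets and dendritic cells. Its levels were 291.6, 198.2, 268.9 and 290.5 CPM in YFP- replicates 1 to 4 and 284.5, 212.5, 279.3 and 289.9 CPM in YFP+. Both libraries numbered 2 were low, and libraries with the same number lay close together. Its log2 fold change was 0.03 (SE 0.05, edgeR adjusted p = 0.806), with a 95% interval from -0.08 to 0.14. YFP+ was higher in 2 of 4 pairs.

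Enpp2 encodes autotaxin, the secreted enzyme that makes lysophosphatidic acid, a lipid that promotes lymphocyte motility. Its levels were 83.9, 72.7, 71.7 and 59.3 CPM in YFP- replicates 1 to 4 and 53.0, 58.3, 56.3 and 48.4 CPM in YFP+. The lowest YFP- library was just above the highest YFP+ library, so the groups did not overlap. Means were 71.9 ± 10.05 CPM (YFP-) against 54.0 ± 4.32 CPM (YFP+; SD, n = 4 each). Enpp2 had a log2 fold change of -0.41 (SE 0.07), or 0.755-fold, with an edgeR adjusted p of 3.65e-04, and YFP+ was lower in 4 of 4 pairs. The fall was largest in pair 1, at -0.66, against -0.35 to -0.29 in the others. Enpp2 (ENSMUSG00000022425) spans 54838901 to 54952892 on the minus strand of chromosome 15, and the antisense gene Gm26684 shares 345 of its 5779 exonic bases.

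Autotaxin is also made by glial cells elsewhere in the nervous system, and glial genes fell in YFP+. Of 8 enteric glial genes, 7 fell, where 7.85% of all genes tested did. The summed level of the 8 was 106.2 to 172.3 CPM in YFP- and 7.11 to 9.79 CPM in YFP+. The part of glia in the Enpp2 result was not tested. Of the enzymes that degrade lysophosphatidic acid, Plpp3 rose from 892 ± 94.3 to 1193 ± 109.7 CPM (log2 fold change 0.42, edgeR adjusted p = 1.95e-07). Plpp1 fell from 118.6 ± 7.39 to 90.9 ± 11.1 CPM (log2 fold change -0.39, edgeR adjusted p = 5.83e-05; SD, n = 4 each). Lpar1, a receptor for this lipid named here after its values were seen, had 588 ± 5.03 CPM (YFP-) against 566 ± 27.4 CPM (YFP+; SD, n = 4 each). It did not pass (edgeR adjusted p = 0.553).

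Ch25h encodes cholesterol 25-hydroxylase, which starts the synthesis of the oxysterol that draws B cells and innate lymphoid cells through the receptor GPR183. Its levels were 5.34, 6.44, 5.13 and 6.52 CPM in YFP- replicates 1 to 4 and 7.11, 6.86, 11.4 and 9.10 CPM in YFP+. Every YFP+ library was above every YFP- library, and YFP+ was higher in 4 of 4 pairs. The log2 fold change was 0.53 (SE 0.20), close to that of Tnfsf13b, but the pair ratios ran from 0.09 to 1.15 and it did not pass (edgeR adjusted p = 0.0850). It passed without the libraries numbered 2 (edgeR adjusted p = 0.0403), and over all alternatives its adjusted p ran from 0.0403 to 0.484. Ch25h has a single exon, 34473778 to 34475164 of chromosome 19, minus strand, and the antisense gene Gm26902 shares 159 of its 1387 bases.

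Later genes of the oxysterol route were read next to Ch25h. Cyp7b1, which acts on the product of Ch25h and is named here after its values were seen, had 135.7 ± 42.0 CPM (YFP-) against 116.6 ± 24.6 CPM (YFP+; SD, n = 4 each). It did not pass (log2 fold change -0.19, edgeR adjusted p = 0.472). Hsd3b7, the next enzyme, had a count of 0 in all 8 libraries, but its exons overlap another annotated gene on the same strand, so its level is uncertain. The receptor gene Gpr183 had 54 counts in all and was not tested.

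Bst1 encodes BP-3, a cell surface enzyme of the cyclic ADP-ribose family and a marker of lymphoid stroma. It had 1 count over the 4 YFP- libraries and 7 over the 4 YFP+ libraries, and 4 of the 8 libraries had 0. Those sums correspond to 0.0103 CPM (exact Poisson 95% interval 2.6e-04 to 0.0572) and 0.0632 CPM (0.0254 to 0.130). A count of 0 in a library allows up to 0.109 to 0.132 CPM in those 4 libraries, so every observed level lay below what such a count allows.

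**Figure D2:**
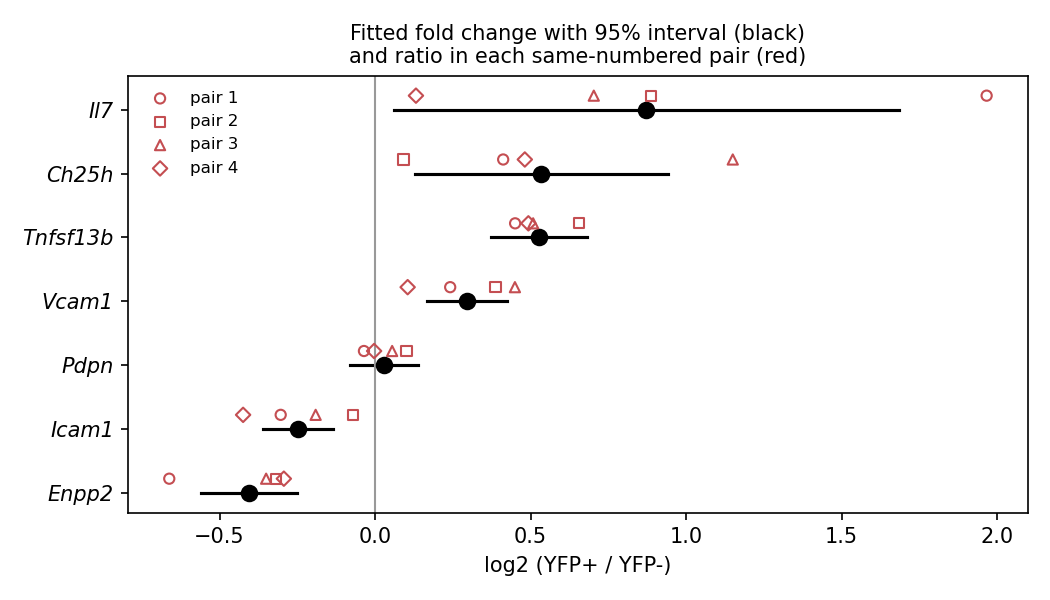
Fitted log2 fold change of YFP+ over YFP- (horizontal axis) for the 7 tested genes, with 95% intervals in black, and the ratio in each same-numbered pair as red symbols. All 4 pairs lie on the same side of 0 for every gene but Pdpn, and the pairs are tightest for Pdpn (-0.04 to 0.10) and Tnfsf13b (0.45 to 0.65).

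The pairs had the same direction in all 4 cases for 6 of the 7 tested genes, where 30.3% of all tested genes had it. Tnfsf13b, Enpp2 and Ch25h were the 3 whose groups did not overlap, as for 9.64% of all tested genes. The authors' deposited table gives log2 fold changes of 0.53 for Tnfsf13b, 0.30 for Vcam1, -0.24 for Icam1 and -0.40 for Enpp2. The authors' deposited table also gives adjusted p-values of 4.83e-08, 7.85e-04, 0.0011 and 2.66e-04 for these genes in that order. For Il7, Ch25h, Pdpn and Madcam1 the authors' fold changes were 0.89, 0.54, 0.04 and -0.24. Their adjusted p-values there were 0.236, 0.157, 0.800 and 0.961. Tnfsf11 and Bst1 had no adjusted p. That table also holds the counts used here, so its values are not a separate measurement.

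**Figure D3:**
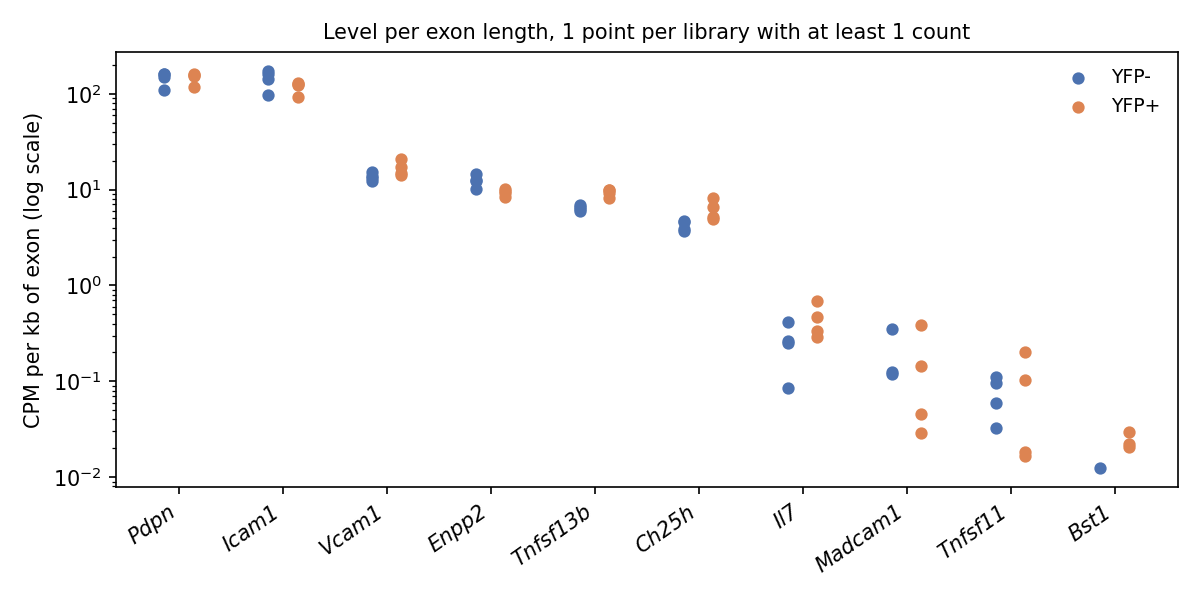
CPM per kb of exon (vertical axis, log scale) for each gene, with 1 point per library that had at least 1 count, YFP- in blue and YFP+ in orange. Pdpn and Icam1 lie near 100 and the drawn Bst1 points run from 0.0126 to 0.0296, with a gap between Ch25h and Il7.

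Divided by exon length, the 10 genes covered about 4 orders of magnitude. This length joins the exons of all annotated transcripts of a gene and can exceed that of the RNA present, so the order below depends on it. Pdpn had a mean of 145.5 CPM per kb over all libraries (range 109.1 to 160.5) and Icam1 130.8 (92.5 to 171.4), and these ranges overlapped. Vcam1 followed at 15.2 (12.1 to 20.6), Enpp2 at 10.9 (8.37 to 14.5), Tnfsf13b at 7.85 (5.97 to 9.89) and Ch25h at 5.22 CPM per kb (3.70 to 8.21), and each of these overlapped its neighbour in the order. Il7 was at 0.348 CPM per kb (0.0857 to 0.682), clear of Ch25h above it. Madcam1 (0.1504), Tnfsf11 (0.0799) and Bst1 (0.0107) came last, with ranges that overlapped from Il7 downward. The steps from Icam1 to Vcam1 and from Ch25h to Il7 were the places where neighbours did not overlap.

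Ratios within a library do not depend on how libraries are scaled. Per kb of exon, Tnfsf13b was 0.411, 0.4996, 0.555 and 0.641 of Enpp2 in YFP- replicates 1 to 4. In YFP+ it was 0.889, 0.980, 1.01 and 1.11 of Enpp2. Per kb, Tnfsf13b was therefore below Enpp2 in all 4 YFP- libraries and near it in YFP+, and the ratio did not overlap between the groups. In CPM not divided by length, the YFP+ means were 63.7 for Tnfsf13b and 54.0 for Enpp2, so nearness depends on the lengths used. The ratio of Vcam1 to Icam1 per kb was 0.0996 ± 0.0278 (YFP-) against 0.145 ± 0.0375 (YFP+; SD, n = 4 each), higher in 4 of 4 pairs but with overlap. Each of these ratios joins a gene that rose with a gene that fell, so they restate those differences.

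**Figure D4:**
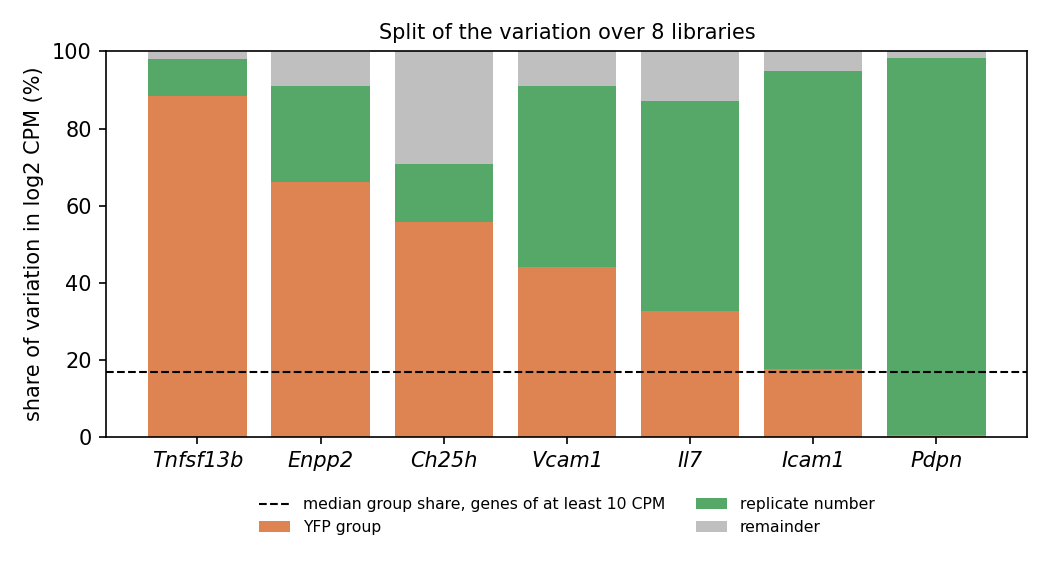
Share of the variation in log2 CPM over the 8 libraries (vertical axis, percent) that lies with the YFP group, with the replicate number and with neither, for the 7 tested genes. The group holds 88.5% for Tnfsf13b and 0.497% for Pdpn, and the dashed line is the median group share of genes of at least 10 CPM, 16.8%. Ch25h and Il7 averaged less than 10 CPM.

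The genes differed in whether the YFP group or the replicate number carried their variation. For Tnfsf13b 88.5% of the variation in log2 CPM lay between the groups, for Enpp2 66.2%, for Ch25h 55.8% and for Vcam1 43.9%. For Pdpn 97.9% and for Icam1 77.3% lay between replicate numbers. Among 8995 tested genes of at least 10 CPM, the median shares were 16.8% for the group and 49.3% for the replicate number. Ch25h and Il7 averaged 7.24 and 1.97 CPM, below that cut, so these medians are not matched to their levels. What the numbers share is not given in the sources used here.

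Genes with the most similar profile were sought among 8601 protein-coding genes of at least 10 CPM, by the root-mean-square difference of centred log2 CPM over the 8 libraries. For Tnfsf13b they were Mmp2, a gelatinase of fibroblasts (difference 0.0920), and Dhrs4 (0.0936), where the median over all genes searched was 0.301. For Enpp2 they were Asap3 (0.0916) and Boc, a Hedgehog co-receptor (0.0966), against a median of 0.299. For Vcam1 they were Tspan12, a tetraspanin (0.0749), and Cops5 (0.0809), against 0.259, and for Icam1 Zbtb11 (0.0625) and Brd2, a bromodomain protein (0.0686), against 0.329. Mmp2 averaged 726 CPM (YFP-) against 951 CPM (YFP+), a direction that its choice by likeness to Tnfsf13b fixes.

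Genes that act with the members were read from a list of 29 receptors, enzymes, integrins and linkers, of which 23 were tested. Of these 2 rose and 4 fell, where 3.65% and 7.85% of all genes tested did, with a median log2 fold change of -0.17. Besides Plpp3, Itgb1, the β1 integrin chain, was the gene that rose (log2 fold change 0.19, edgeR adjusted p = 0.0113). It did not pass with the pairing left out (edgeR adjusted p = 0.238) or without the libraries numbered 1 or 3 (edgeR adjusted p = 0.0504 and 0.12). Ezr, the ezrin gene whose product binds the tail of podoplanin, fell from 47.3 ± 3.69 to 25.5 ± 2.68 CPM (SD, n = 4 each; log2 fold change -0.90, edgeR adjusted p = 7.09e-08). Il7r, the receptor for interleukin 7, fell from 5.75 ± 1.73 to 1.87 ± 0.848 CPM (SD, n = 4 each; log2 fold change -1.65, edgeR adjusted p = 1.67e-04). Itga4, the α4 integrin chain, fell as well (log2 fold change -0.66, edgeR adjusted p = 0.0123), but not with the pairing left out (edgeR adjusted p = 0.0743, and up to 0.143 over the alternatives). Cd44, a podoplanin partner named after its values were seen, had 170.6 ± 8.70 CPM (YFP-) against 170.5 ± 3.69 CPM (YFP+; SD, n = 4 each) and did not pass (edgeR adjusted p = 0.998).

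**Figure D5:**
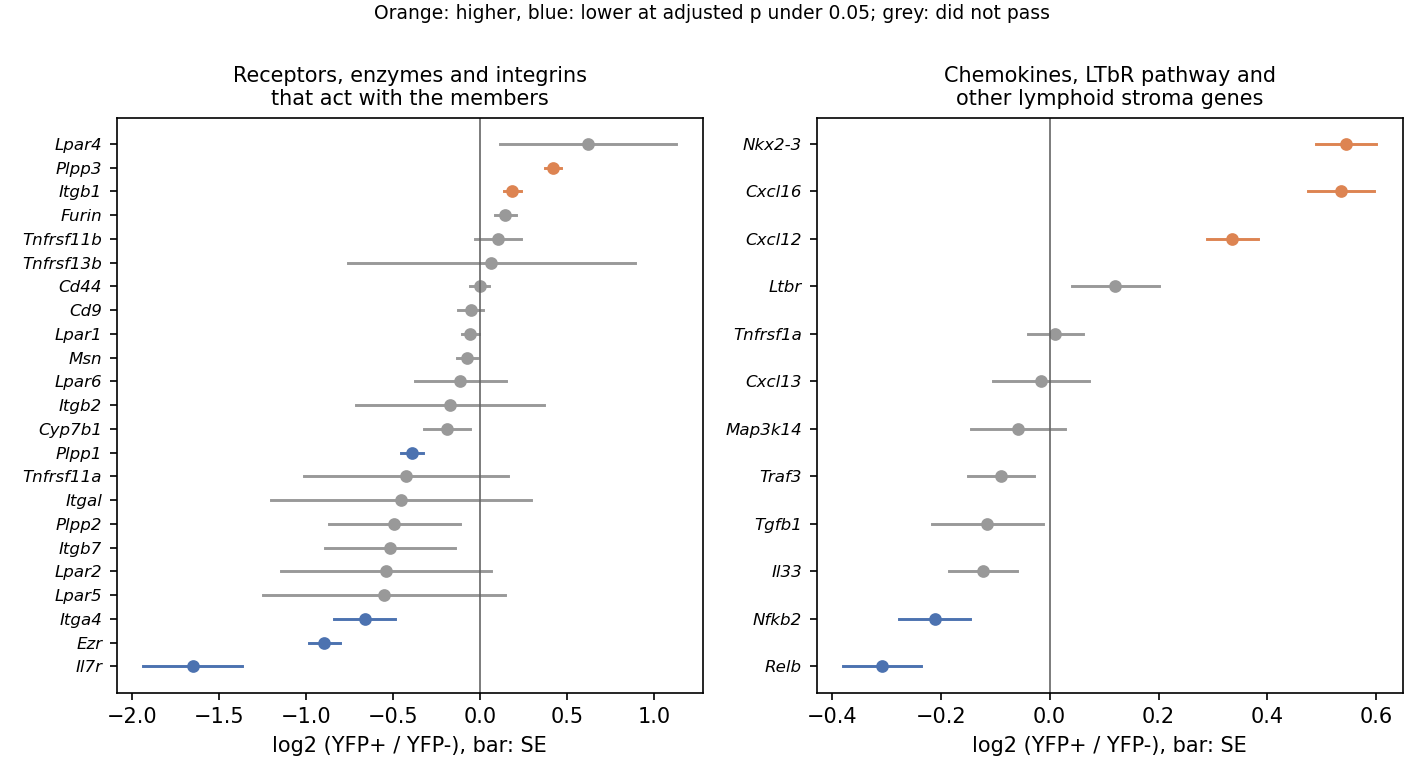
Log2 fold change of YFP+ over YFP- (horizontal axis, bars are SE) for tested genes that act with the members (left) and for chemokine, LTβR pathway and other lymphoid stroma genes (right). Orange marks genes that were higher and blue those that were lower at an adjusted p of 0.05. Plpp3 is at 0.42 and Il7r at -1.65 on the left, and Nkx2-3 at 0.54 and Relb at -0.31 on the right.

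Of 16 chemokine, LTβR pathway and other lymphoid stroma genes, 12 were tested, and their median log2 fold change was -0.04. Of the 12, 3 rose and 2 fell, where 3.65% and 7.85% of all genes tested did. Nkx2-3, a homeobox factor needed for gut vascular addressin, rose from 150.1 ± 9.53 to 218.8 ± 12.8 CPM (SD, n = 4 each; log2 fold change 0.54, edgeR adjusted p = 8.88e-08). Cxcl16 rose by 0.54 (edgeR adjusted p = 5.48e-07). Cxcl12, the ligand of CXCR4, rose from 509 ± 51.0 to 644 ± 69.9 CPM (SD, n = 4 each; log2 fold change 0.34, edgeR adjusted p = 1.35e-05, or 0.0635 with the pairing left out). Relb, a factor of the non-canonical NF-kB arm, fell (log2 fold change -0.31, edgeR adjusted p = 0.00434, or 0.0683 with the pairing left out). Its partner Nfkb2 fell too (log2 fold change -0.21, edgeR adjusted p = 0.037), a call lost with the pairing left out (edgeR adjusted p = 0.452), with DESeq2 (adjusted p = 0.067) and without the libraries numbered 1, 2 or 4 (edgeR adjusted p = 0.144, 0.0743 and 0.301).

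Chemokines that define lymphoid zones were read next. Cxcl13, the B cell zone chemokine, had 46.1 ± 15.3 CPM (YFP-) against 44.4 ± 8.59 CPM (YFP+; SD, n = 4 each) and did not pass (log2 fold change -0.02, edgeR adjusted p = 0.944). Ccl19 of the T cell zone had 13 counts in all and Ccl21a 185. Both symbols have 2 identifiers in the table and near-identical gene copies, so these counts are uncertain. In a list read for follicular dendritic cells, Mfge8 averaged 130.3 CPM, Cr1l 45.0 CPM and Sox9 35.5 CPM over the 8 libraries. Cr2 was at 0.208 CPM, Coch at 0.168 CPM and Fcer2a at 0.0572 CPM. The 3 abundant genes are not particular to that cell type, so their levels do not show that it was present. Of 5 tested genes of that list 1 rose, Mfge8 (log2 fold change 0.24, edgeR adjusted p = 0.0065, or 0.0831 with the pairing left out). Fcgr2b, named after its values were seen, was the 1 that fell (log2 fold change -3.52). All genes tested gave 3.65% upward and 7.85% downward.

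Markers of other cells were detected in both fractions. The counts of called genes below stand beside 3.65% upward and 7.85% downward over all genes tested. Of 7 tested blood endothelial genes 3 fell (1, Tek, with the pairing left out), with a summed level of 62.4 to 95.5 CPM in YFP- and 44.5 to 57.9 CPM in YFP+. Most of that sum was Tek, at a mean of 46.3 CPM (YFP-) and 27.3 CPM (YFP+). Cdh5, Kdr and Tie1 averaged 1.25, 1.31 and 1.09 CPM over the 8 libraries. For lymphatic endothelium 0 of 5 passed in edgeR, with 9.57 to 21.9 and 3.63 to 17.5 CPM. Of 5 tested lymphocyte and plasma cell genes 1, Il7r, fell, and the sums were 78.7 to 277.9 and 38.8 to 320.0 CPM. Igha, the IgA heavy chain of plasma cells, alone averaged 137.7 CPM over the 8 libraries, about as high as Vcam1, and did not pass (edgeR adjusted p = 0.584). For myeloid cells 0 of 7 passed in edgeR, with 45.6 to 78.0 and 42.4 to 61.6 CPM. Most of that sum was Cx3cr1, which averaged 34.7 CPM over the 8 libraries, followed by Cd68 at 7.82 CPM. Fcer1g and Lyz2 averaged 4.39 and 4.01 CPM, Csf1r 2.84 CPM, Adgre1 1.03 CPM and Tyrobp 0.422 CPM. Of 8 tested epithelial genes 3 fell, with 39.0 to 78.7 and 19.0 to 27.6 CPM. Lgals4, which did not pass (edgeR adjusted p = 0.346), averaged 15.4 CPM in YFP+, most of the sum there. Of 3 tested genes of the mesothelial list Krt19 fell, with summed levels of 7.71 to 17.7 and 4.80 to 5.63 CPM. Upk3b and Rspo1 did not pass (edgeR adjusted p = 0.776 and 0.0803). Krt19 is not particular to mesothelium and is also an epithelial keratin gene, and which cells carried it was not tested. Among mesothelial genes too low to test, Msln and Lrrn4 had 1 count each in all, Bnc1 had 10 and Wt1 had 102. Some of these cells express Icam1, Vcam1, Madcam1, Pdpn, Il7 or Tnfsf13b, and their part in the results was not tested.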

How the data were processed

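RNA from 8 libraries was sequenced after preparation with a stranded total RNA kit for small inputs on an Illumina NextSeq, per the labels' protocols. The submitters' processing notes list STAR 2.7.3a, cutadapt 3.4, DESeq2 and featureCounts 2.0.1, and name GRCm38 (mm10). Raw counts, not normalised, were taken from the authors' deposited table, which has a column per library. The same deposited table gives the authors' log2 fold changes and adjusted p-values. Its 8 normalised columns were not used.

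The analysis of counts used edgeR 4.0.16 (R 4.3.3): expression filter (16354 of 53801 genes kept), TMM scaling, a robust quasi-likelihood F test with group and replicate number, and Benjamini-Hochberg adjustment over all genes tested at 0.05. CPM used TMM-scaled totals. The SE is the absolute log2 fold change over the square root of F. The variation split and the profile comparison used log2(CPM + 0.5). The replicate number was a block because the choice of members takes equal numbers as pairs. An earlier analysis of these data had also reported that DESeq2 with the number gives the authors' fold changes. Same-numbered libraries deviated together. Deviations from group means were taken over the 5250 genes whose mean log2 CPM exceeded 5. They correlated at 0.60, 0.64, 0.38 and 0.58 within numbers and at -0.42 to 0.05 between them. Deviations cancel out within a group, so positive values within numbers push those between numbers towards negative values. No label states what a number shares. All same-group pairs of libraries differed by more than sampling noise. The test was tried on simulated counts first.

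The members, gene lists and tests were chosen with earlier results of these data known. Named genes were the members, up to 3 called genes per direction of the partner and lymphoid stroma lists, the 2 most abundant genes of each marker list, and the 2 genes with the profile nearest to each called member. Not all genes taken by this rule are described. Other genes given with values (Ltbr, Tnfrsf11b, Itga4, Cspg4, Mcam, Cxcl13, Ccl19, Ccl21a, Cr2, Fcer2a, Sox9, Hsd3b7 and Gpr183 among them) were picked from the same lists after their values were seen. Where a symbol had 2 identifiers, the one with more counts was used. Coordinates and exon lengths are from GENCODE mouse release 21, 1-based. As alternatives, scaling was changed (upper quartile, relative log expression), the filter was changed or dropped, DESeq2 1.42.0 or limma-voom (limma 3.58.1) replaced the test, and the block, the mitochondrial and rRNA genes, or each replicate number in turn were left out.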

Additional observations from a re-analysis of the deposited data

Results flagged for a closer look

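In 9 of 100 sets of 4 CPM values, 1 library lay far from the rest of its group. Chance gives about 1 in 20, or 5. The sets are not independent, because some genes were picked for likeness to a member, so these counts cannot show an excess. Among the organiser genes, YFP+ replicate 2 was low for Icam1 (403.1 CPM, others 542.5 to 569.3 CPM) and for Pdpn (212.5 CPM, others 279.3 to 289.9 CPM). Bst1 had its only YFP- count in replicate 2 (0.0418 CPM), and a lone count in a group always stands apart by this rule. YFP+ replicate 2 was also low for Brd2 (344.3 CPM), a gene picked for its likeness to Icam1, and high for Plpp1 (107.5 CPM) and Kcna1 (0.780 CPM). In YFP- replicate 4, Egr1 (2999 CPM) and Cx3cr1 (46.9 CPM) were high, and YFP+ replicate 4 was low for Asap3 (60.4 CPM).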

How the results depend on the processing

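Tnfsf13b and Enpp2 kept their direction and passed under every alternative run, with log2 fold changes of 0.49 to 0.55 and -0.44 to -0.32 without each replicate number in turn. With no replicate block, 150 genes were higher and 547 lower, 691 of the 697 being among the 1880 called with it, and 1 member rose and 1 fell. Vcam1 (0.31) and Icam1 (-0.27) then lost their calls. The called genes fell to 2 in the lymphoid stroma list, 1 in the follicular dendritic cell list, 2 in the fibroblast list, 1 in the blood endothelial list and 2 in the smooth muscle and mural list. Without a filter 1 lymphatic gene and 5 epithelial genes passed, and 5 epithelial genes also passed with DESeq2 and with limma-voom. Leaving out each replicate number gave 331 to 500 genes higher (331 without number 3) and 851 to 1126 lower, 1 to 3 members higher and 1 to 2 lower. It gave log2 fold changes of 0.24 to 0.36 for Vcam1, -0.30 to -0.19 for Icam1, 0.33 to 0.69 for Ch25h, 0.58 to 1.13 for Il7 and 0.01 to 0.05 for Pdpn. Called genes then ran from 4 to 6 among partners, 4 to 5 in the lymphoid stroma list, 1 to 2 in blood endothelium, 0 to 1 in lymphatic endothelium, 3 to 5 in epithelium and 5 to 8 in smooth muscle and mural genes. Cr1l ran from -1.942e-04 (without number 1) to 0.085, and Jchain from -0.49 to 0.13 (without number 3), neither of them called. The causes were not tested. Madcam1, Tnfsf11 and Bst1 were below the filter on low counts, and differences in them were not detectable at this depth.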
